A study of Cicer arietinum with 8 samples.

Results

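Glutathione S-transferases (GSTs) couple the tripeptide glutathione to reactive or foreign compounds, and many of them also reduce peroxides. The 5 genes described here were taken by their identifiers: the lambda-class gene GST (Ca_12001) and 4 tau-class genes, GSTU7 (Ca_05354), GSTU20 (Ca_23113), GSTU19 (Ca_14389) and GSTU25 (Ca_03087). Their names are those used in the study. They are 5 of 30978 loci in the deposited expression values, and each is the only identifier of its locus. Tau GSTs are a large class particular to plants that detoxify herbicides and other electrophiles and bind small ligands. Lambda GSTs are a small plant class that carries a cysteine in place of the usual serine in the active site and acts mainly as a glutathione-dependent reductase. In roots, both classes belong to the defence against the oxidants and reactive breakdown products that accumulate when water is short.

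Roots were collected from ICC4958, a drought-tolerant (DT) chickpea (Cicer arietinum) genotype, and from ICC1882, a drought-sensitive (DS) genotype, each under control (C) and drought (D) conditions. Chamber-grown seedlings were harvested at 27 days. By the sample descriptions, drought plants had gone without water for 11 days from day 16 and control plants had been watered every other day, whereas the study's methods give an earlier start and a longer stress. The 4 conditions, DS(C), DS(D), DT(C) and DT(D), had 2 libraries each, 8 in all, every one prepared from whole roots and therefore from a mixture of cell types. In such bulk tissue, fewer cells of a type and less RNA per cell cannot be told apart.

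Expression was deposited as FPKM, a read abundance that is scaled to the length of the transcript and to the size of the library, with a single value per locus and condition that pools both libraries. No replicate spread can be computed from such values, so no difference below was tested. Each is a description of the authors' pooled values. Because FPKM is scaled to transcript length, levels of different genes can be set side by side. The values did not fall into steps of whole reads, so the number of reads behind a value is unknown. The identifiers are not paired with gene symbols in the files, so the root label could not be checked against marker genes.

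GST was the only gene of the 5 with a designed primer pair for RT-qPCR, and they are the only sequences of these genes at hand. They are shown as the study lists them for GST, and they were not matched to any transcript sequence here. Each is 22 bases long and is written 5′ to 3′ without capitals, since no base within them is singled out.
GST forward primer: gatcctgtcacgcaaacaagtg
GST reverse primer: ggcccatcaaatttaccaagag

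GST, the lambda-class reductase, had 6.88 FPKM in DS(C), 10.4 in DS(D), 4.67 in DT(C) and 12.6 in DT(D). It was higher under drought than under control conditions in both genotypes, and its lowest and its highest value were both in the tolerant genotype. In DT(C), 31.8% of the loci with any expression lay below GST, and in DT(D) 53.1% did.

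GSTU7 was the most abundant of these 4 tau genes in every condition, with 27.9 FPKM in DS(C), 15.7 in DS(D), 22.9 in DT(C) and 7.09 in DT(D). Both control values were above both drought values, and the lowest was in DT(D). The highest value was 3.94 times the lowest.

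GSTU20 is named after an Arabidopsis tau GST that binds the jasmonate-conjugating enzyme FIN219. It had 4.49 FPKM in DS(C), 1.33 in DS(D), 1.60 in DT(C) and 0.415 in DT(D). As for GSTU7, the highest value was in DS(C) and the lowest in DT(D), but here they were 10.8-fold apart, the widest range of the 5 genes.

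GSTU19 carries the name of an abundant Arabidopsis tau GST that responds to herbicide safeners. It had 0.574 FPKM in DS(C), 1.31 in DS(D), 0.280 in DT(C) and 1.02 in DT(D). Both drought values were above both control values, the reverse of GSTU7, and within each water regime the sensitive genotype was the higher.

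GSTU25 shares its name with an Arabidopsis tau GST known for conjugating the explosive TNT. It stayed under an FPKM of 1 throughout, with 0.729 in DS(C), 0.994 in DS(D), 0.502 in DT(C) and 0.167 in DT(D). Both values of the sensitive genotype were above both values of the tolerant genotype. Between 5.07% (DT(D)) and 14.4% (DS(D)) of the expressed loci lay below it, so its ratios rest on values near the bottom of the range.

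**Figure D1:**
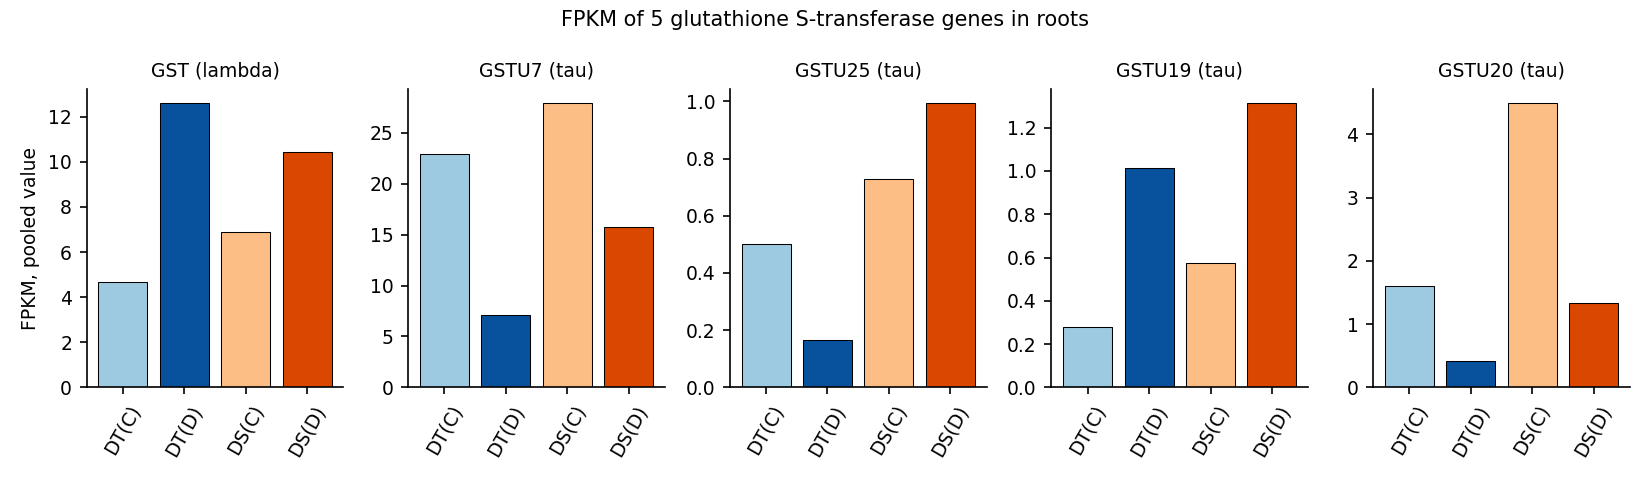
FPKM (vertical axes, each starting at 0 with its own scale) of the 5 genes in the 4 conditions; a bar is the authors' pooled value of 2 libraries and has no error bar. GST and GSTU19 are higher in drought than in control in both genotypes, GSTU7 and GSTU20 are lower, and GSTU25 is lower in DT (0.502 to 0.167) and higher in DS (0.729 to 0.994).

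An FPKM of 1 was reached somewhere by 4 of the 5 genes, and by GST and GSTU7 in every condition. The study drew these genes from loci chosen for their variance over the same conditions, so it is no finding that they vary. The variance of log2(FPKM + 1) over the 4 values was 0.657 for GSTU7, 0.653 for GSTU20, 0.318 for GST, 0.143 for GSTU19 and 0.109 for GSTU25.

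The make-up of the group changed with the water regime. Under control conditions GSTU7 held 76.5% of the summed FPKM of the 5 genes in DT and 68.8% in DS, and GST held 15.6% and 16.9%. In DT(D) the order was inverted, with 59.2% for GST and 33.3% for GSTU7. In DS(D) GSTU7 still led, with 52.8% against 35.0% for GST. The other 3 genes together held between 7.50% (DT(D)) and 14.3% (DS(C)).

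The ratio of GST to GSTU7 within a condition does not depend on how a whole library is scaled. It was 0.246 in DS(C), 0.663 in DS(D), 0.203 in DT(C) and 1.78 in DT(D). On the log2 scale it was 3.13 higher in DT(D) than in DT(C) and 1.43 higher in DS(D) than in DS(C). Under control conditions the genotypes differed by 0.28 in this measure, with DT the lower, and under drought by 1.42, with DT the higher.

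GSTU19 and GSTU20 likewise changed places in DT, at a lower level and with several of their values under an FPKM of 1. GSTU20 exceeded GSTU19 by a factor of 7.82 in DS(C) and 5.70 in DT(C). In DT(D) GSTU19 was 2.45 times GSTU20, and in DS(D) both were about equal, with 1.31 FPKM for GSTU19 and 1.33 for GSTU20.

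The 5 genes summed to 40.6 FPKM in DS(C), 29.8 in DS(D), 29.99 in DT(C) and 21.3 in DT(D). As deposited, the sum had a drought log2 ratio of -0.49 in DT and -0.45 in DS. These values depend on how the columns are scaled, since their FPKM over all loci do not add up to the same total. With every column brought to one sum, a setting added after the values were seen, the ratio was -0.47 in DT and 0.019 in DS. Under that scaling the sum was lower under drought in DT alone. The median drought log2 ratio over all loci was 0.02 in DT and -0.01 in DS, so centring on it would move the deposited ratios little. For the 4 tau genes alone the sum was 8.69 FPKM in DT(D) against 25.3 in DT(C) (log2 ratio -1.54), and 19.4 in DS(D) against 33.7 in DS(C) (-0.80). With equal column sums the tau ratios were -1.52 and -0.33.

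**Figure D2:**
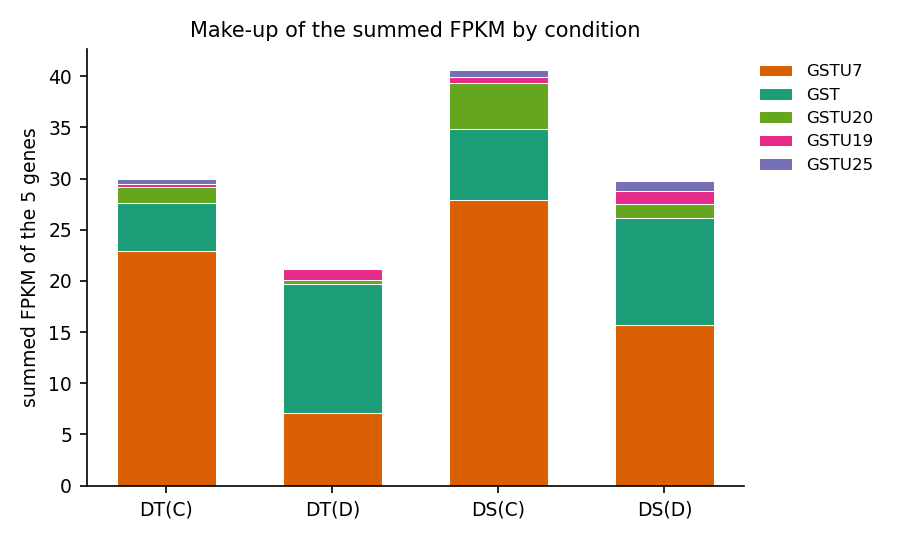
Summed FPKM of the 5 genes in each condition (vertical axis from 0), stacked by gene, without error bars because each value pools 2 libraries. GSTU7 is the largest block in DT(C), DS(C) and DS(D), and GST is the largest in DT(D), where the whole stack is lowest at 21.3 FPKM.

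Drought was compared with control in the tolerant genotype, DT(D/C), to see which transcripts differ with water supply in those roots. A log2 ratio of at least 1 was counted as higher and of at most -1 as lower, over the loci that reached an FPKM of 1 on either side of the comparison. Of the 5 genes 4 could be compared, 2 of which were higher and 2 lower. GSTU19 reached the minimum in DT(D) alone and GSTU20 in DT(C) alone. GSTU19 could therefore be counted only as higher and GSTU20 only as lower. Over all 20326 loci compared, 5.03% were higher and 8.88% lower, 13.9% together.

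GST was 2.70-fold higher in DT(D) than in DT(C) (log2 ratio 1.43) and GSTU7 3.24-fold lower (-1.69). GSTU19 had a log2 ratio of 1.86 and GSTU20 of -1.94, both from values close to an FPKM of 1. With a pseudocount of 1, which damps ratios of low values, GST and GSTU7 stayed past the threshold at 1.26 and -1.57, whereas GSTU19 and GSTU20 came within it at 0.65 and -0.88. GSTU25, under the minimum in both conditions, had 0.502 and 0.167 FPKM, which was not counted (log2 ratio -1.59).

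In the sensitive genotype, DS(D/C), 1 of the 4 genes compared was higher and 1 lower, and GST and GSTU7 lay within the threshold. The background in DS(D/C) was 8.21% higher and 8.66% lower of 20093 loci, 16.9% together. GSTU20 was 3.37-fold lower under drought (log2 ratio -1.75, or -1.24 with a pseudocount of 1). GSTU19 was past the threshold at 1.19, but a pseudocount of 1 brought it to 0.56. GSTU19 reached the minimum FPKM in DS(D) alone (1.31, against 0.574 in DS(C)), so it could be counted only as higher. GST had a log2 ratio of 0.60 and GSTU7 of -0.83, the same directions as in the tolerant genotype.

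Scaling matters most in this genotype. The FPKM of all loci summed to between 1204308 in DS(D) and 1662837 in DS(C), and equal column sums would raise each log2 ratio in DS(D/C) by 0.47. GST then had a log2 ratio of 1.07, past the threshold, and GSTU7 of -0.36. With this scaling the background was 20.1% higher and 4.73% lower. Centring within 10 groups of expression moved the ratios the other way, to 0.43 for GST and -0.89 for GSTU7. The background was then 6.34% higher and 8.83% lower.

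**Figure D3:**
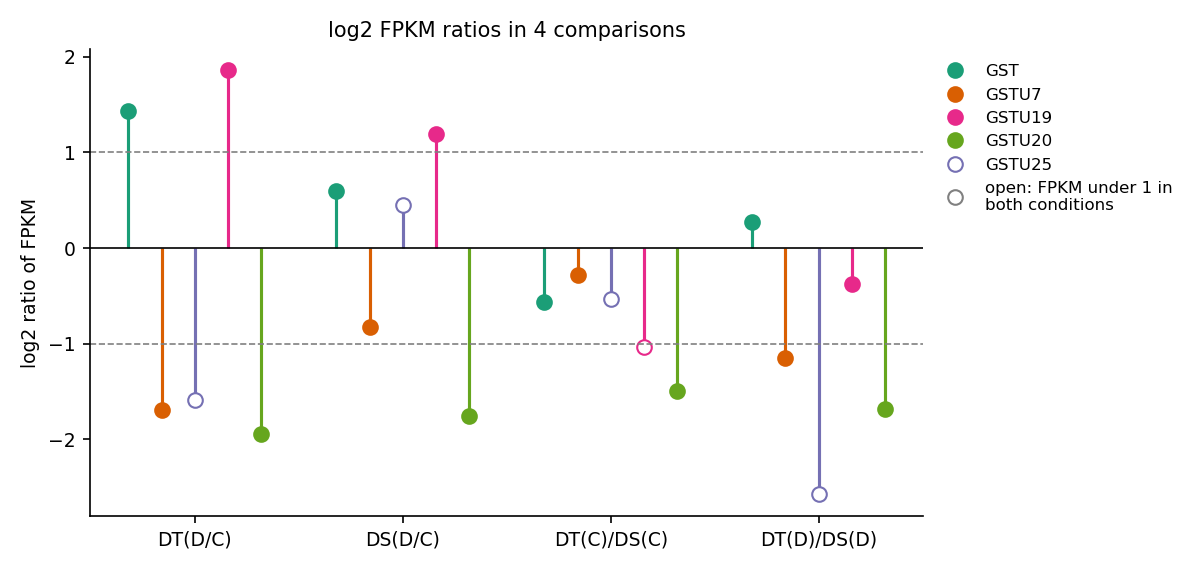
log2 ratio of FPKM (vertical axis) of the 5 genes in 4 comparisons; dashed lines mark 1 and -1, and open points are genes under an FPKM of 1 in both conditions. In DT(D/C) GST (1.43) and GSTU19 (1.86) lie above the upper line and GSTU7 (-1.69) and GSTU20 (-1.94) below the lower line. All 5 genes are below 0 in DT(C)/DS(C), as were 43.8% of the loci compared that were above 0 in both conditions.

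The drought ratios of the genotypes were set against each other as the difference DT(D/C) minus DS(D/C). It was 0.83 for GST and -0.87 for GSTU7, so both genes differed more between drought and control in the tolerant genotype, in opposite directions. With columns brought to the same sum these differences were 0.39 and -1.30. It was 0.66 for GSTU19 and -0.19 for GSTU20. With the values as deposited none of these 4 reached 1 in size, where 8.52% of 20231 loci had a difference of at least 1 and 12% one of at most -1. GSTU7 passed 1 in size with the rescaled columns. GST (1.01) and GSTU19 (1.03) did so with ratios centred within 10 groups of expression. The share over all loci was not computed under those scalings. GSTU25 had a difference of -2.04, from a ratio of -1.59 in DT and 0.45 in DS, but with a pseudocount of 1 it was -0.57. For GSTU20 the difference was 0.36 with a pseudocount of 1, so its sign depended on that setting.

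Under control conditions, DT(C)/DS(C), all 5 genes had the lower FPKM in the tolerant genotype. So did 43.8% of the loci compared that were above 0 in both conditions. The log2 ratio was -0.56 for GST, -0.28 for GSTU7, -0.54 for GSTU25, -1.03 for GSTU19 and -1.49 for GSTU20. The first 3 were within the threshold, and GSTU19 and GSTU25 were under an FPKM of 1 in both conditions. Of the 3 genes that could be compared, GSTU20 alone was past the threshold, at 1.60 FPKM against 4.49 in DS(C). The background in DT(C)/DS(C) was 11.1% higher and 5.17% lower in DT, of 20231 loci. With columns brought to the same sum, which adds 0.27, it was 17.6% higher and 3.43% lower, and with ratios centred within 10 groups of expression 8.04% and 6.91%. With those equal sums GSTU7 had a log2 ratio of -0.01 and GST of -0.29.

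Under drought, DT(D)/DS(D), GST was the only gene of the 5 with the higher value in the tolerant genotype, 12.6 against 10.4 FPKM (log2 ratio 0.27). Of the loci compared that were above 0 in both conditions, 59.5% were higher in DT and 40.5% lower. GSTU7 was 2.22-fold lower in DT(D) than in DS(D) (-1.15), and GSTU20 3.21-fold lower (-1.68), the latter from 0.415 and 1.33 FPKM. With a pseudocount of 1 GSTU7 stayed past the threshold at -1.05, whereas GSTU20 came within it at -0.72. GSTU19 had a log2 ratio of -0.37. Of the 4 genes compared, 2 were thus lower and 0 higher, beside 5.09% lower and 6.73% higher of 20310 loci. GSTU20 reached the minimum FPKM in DS(D) alone, so it could be counted only as lower. With columns brought to the same sum, which lowers each ratio by 0.17 on the log2 scale, the background was 6.59% lower and 5.15% higher. GSTU25 had 0.167 FPKM in DT(D) and 0.994 in DS(D), under the minimum in both. The 4 comparisons are built from the same 4 values of a gene and share conditions, so a low DT(D) value of GSTU7 enters both DT(D/C) and DT(D)/DS(D).

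How unusual a ratio is depends on the level of the gene, so the loci of each comparison were split into 10 equal groups by mean log2(FPKM + 1). GSTU7 lay in the sixth group, where 5.85% of 2033 loci were lower in DT(D/C) and 2.71% of 2031 were lower in DT(D)/DS(D). GST lay in the fourth group, where 3.39% of 2033 loci were higher in DT(D/C). For DS(D/C) the same group had 7.32% higher, and GST had a ratio of 0.60 beside a group median of 0.17. GSTU19 and GSTU20 lay in the lowest group, where DT(D/C) had 17.6% of the loci higher and 18.4% lower. For DS(D/C) that group had 30.5% higher and 15.0% lower, and for DT(D)/DS(D) 20.9% and 18.3%. Ratios past the threshold were thus common at this level in either direction.

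**Figure D4:**
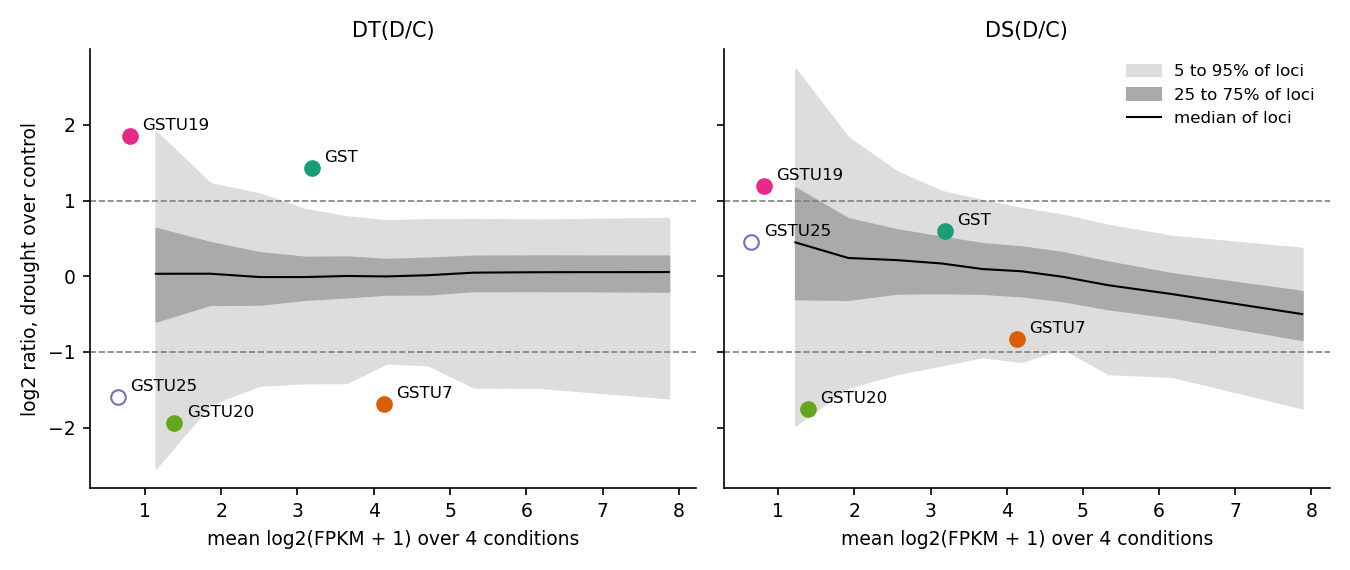
log2 ratio of drought over control (vertical axis) against mean log2(FPKM + 1) over the 4 conditions (horizontal axis); grey bands hold 25 to 75% and 5 to 95% of the loci in 10 groups of expression and the line is their median. In DT(D/C) GST (1.43) and GSTU7 (-1.69) lie outside the wider band, whose edges in their groups are 0.88 and -1.15, and in DS(D/C) both lie inside it.

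The profiles of the 5 genes over the 4 conditions were compared by the Euclidean distance between their log2(FPKM + 1) values, each centred on its own mean. GST and GSTU19 were 0.45 apart and GSTU7 and GSTU20 0.63 apart, whereas GST and GSTU7 were 2.28 apart. Of 17122 loci with an identifier of their own, 269 (1.57%) lay nearer to GST than GSTU19 did, and 119 (0.695%) lay nearer to GSTU7 than GSTU20 did. From the other side of each pair, 1176 (6.87%) lay nearer to GSTU19 than GST did, and 140 (0.818%) nearer to GSTU20 than GSTU7 did. The nearest locus was Ca_06975 for GST (distance 0.04), Ca_19631 for GSTU7 (0.06), Ca_15315 for GSTU19 (0.02) and Ca_14822 for GSTU20 (0.13). Ca_06975 had 44.6 FPKM in DS(C), 67.4 in DS(D), 32.3 in DT(C) and 78.1 in DT(D). Ca_19631 had 16.1, 8.59, 12.3 and 3.61 FPKM in the same order. The distances are over 4 values only. The study named these genes from modules of co-expressed genes over the same conditions, so these shares are no independent measure of likeness. Within a distance of 0.5 lay 60 loci for GSTU7, 60 for GSTU20, 386 for GST and 1708 for GSTU19. With a pseudocount of 0.1, Ca_19631 remained among the 2 nearest of GSTU7, and none of the 2 nearest of the other genes remained.

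Another 22 genes of glutathione metabolism, listed by the study, give the setting, and 2 of them are further GSTs. In DT(D/C), 2 of the 21 that could be compared were higher and 0 lower, beside 5.03% and 8.88% of all loci, and the median log2 ratio was 0.22 beside 0.02 over all loci. In DS(D/C), 1 of 20 was higher and 1 lower, beside 8.21% and 8.66% of all loci, with a median of 0.06 beside -0.01. In DT(C)/DS(C) 0 of 20 were past the threshold, beside 16.3% of all loci, with a median of -0.30 beside 0.09. This background changed with level. Its median was 0.48 in the lowest of the 10 expression groups and -0.32 in the highest. The highest group had 1.73% past the upper threshold and 4.65% past the lower. Many of the listed genes were abundant, and they were not compared with loci of their own level. In DT(D)/DS(D) 2 of 21 were higher and 0 lower, beside 6.73% and 5.09%, with a median of 0.18 beside 0.10. CysPrx1, a gene close to the minimum FPKM, is counted as higher here and also for DT(D/C).

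The transcripts of the further GSTs were far more abundant. GSTU8 (Ca_08326) had 361 FPKM in DS(C), 359.6 in DS(D), 271 in DT(C) and 353 in DT(D), which is between 8.90 and 16.6 times the sum of the 5 genes. GST7 (Ca_03442) shares its locus with Ca_03441, and that locus had 568 FPKM in DS(C), 471 in DS(D), 443 in DT(C) and 538 in DT(D). Their drought log2 ratios were 0.28 for the GST7 locus and 0.38 for GSTU8 in DT. In DS they were -0.27 and -0.01. The ratios past the threshold described above therefore belong to GSTs of low or moderate level.

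Among the enzymes of the ascorbate-glutathione cycle and peroxide removal, 2 of 7 were higher in DT(D/C), where 5.03% of all loci were. DHAR2 (Ca_18637) is a dehydroascorbate reductase, an enzyme of the GST superfamily that, like lambda GSTs, works through a cysteine and uses glutathione to regenerate ascorbate. It had 1070 FPKM in DS(C), 1244 in DS(D), 715 in DT(C) and 1657 in DT(D). As for GST, the lowest and highest values were in the tolerant genotype, with a drought log2 ratio of 1.21 there against 0.22 in the sensitive genotype. The size of this gap depends on scaling, since equal column sums would add 0.47 to the ratio of DS but 0.03 to that of DT. Among the loci of highest expression, the median drought ratio was -0.50 for DS and 0.06 for DT. DHAR2 was above that median in both genotypes. CysPrx1 (Ca_05125), a peroxiredoxin that reduces peroxides through cysteines, had 1.21 FPKM in DT(D) against 0.190 in DT(C), and it stayed under 0.1 in both conditions of DS. CysPrx1 reached the minimum FPKM in DT(D) alone, so it could be counted only as higher. For the group of lowest expression, the share past the upper threshold was 17.6% with DT(D/C) and 20.9% with DT(D)/DS(D). CysPrx1 and the glutathione peroxidase GPX4 (Ca_07849), with 7.26 FPKM in DT(D) and 2.98 in DS(D), were the genes counted as higher in DT(D)/DS(D).

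Of the 7 genes for glutathione reduction and NADPH supply, G6PDH2 (Ca_18820) was higher in DS(D/C), as were 8.21% of all loci. It encodes a glucose-6-phosphate dehydrogenase, a source of NADPH, and had 30.4 FPKM in DS(C), 75.3 in DS(D), 41.3 in DT(C) and 45.0 in DT(D). The reductase listed as GDR (Ca_24310) was listed at 0 in all 4 conditions. Of the 5 genes for glutathione synthesis and breakdown, GGT1 (Ca_12669), a gamma-glutamyl transpeptidase that breaks down glutathione, was lower in DS(D/C), at 11.6 FPKM in DS(D) against 27.7 in DS(C), beside 21.9 in DT(C) and 17.1 in DT(D). No gene of this list was lower than -1 in DT(D/C), where GSTU7 and GSTU20 were.

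**Figure D5:**
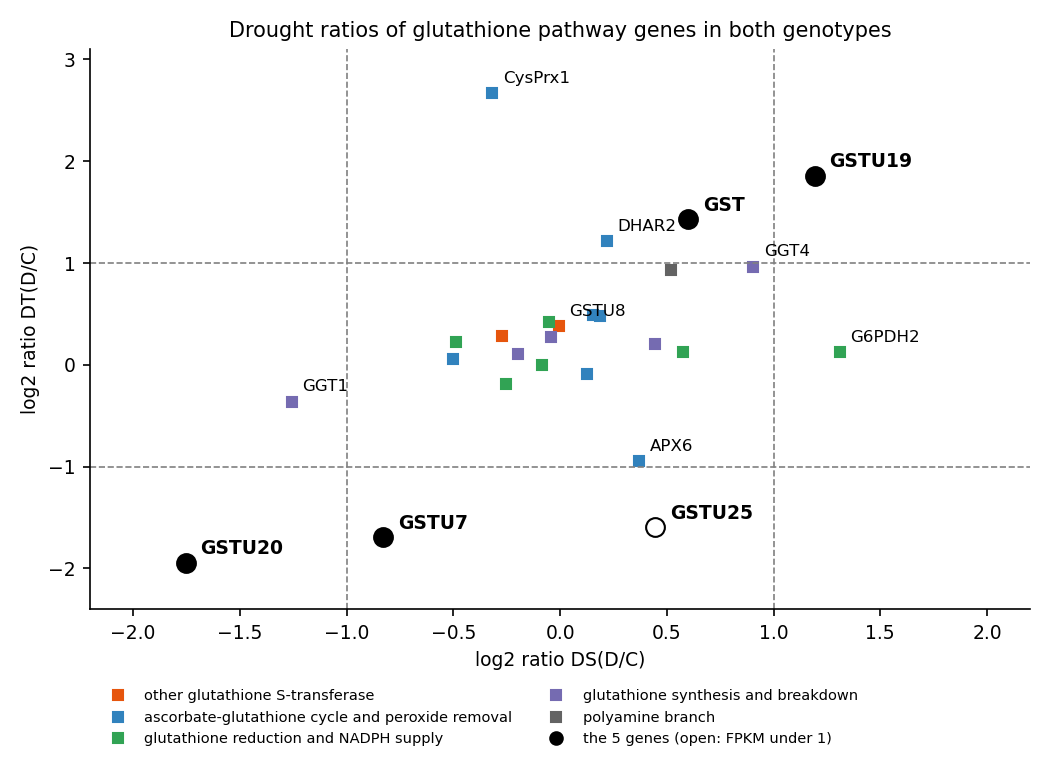
log2 ratio in DT(D/C) (vertical axis) against DS(D/C) (horizontal axis) for the 5 GST genes (circles, open for GSTU25) and 21 other glutathione pathway genes (squares, coloured by role); the reductase at 0 in every condition is left out and dashed lines mark 1 and -1. GST and GSTU19 lie at the upper right and GSTU7 and GSTU20 at the lower left, while most squares lie within the dashed lines.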

How the data were processed

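Per the labels, the authors mapped reads with TopHat2 (v2.1.1) and assembled and quantified transcripts with Cufflinks and Cuffdiff (v2.2.1), and by the study's methods the genome was that of kabuli chickpea. The deposited values are FPKM, which the authors scaled to transcript length and mapped fragments, with 1 value per merged locus and condition pooling 2 libraries. Which normalization between libraries was used is not given in the sources used here. Depth per library and counting error cannot be had from these files.

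The log2 ratio of 2 FPKM values was taken without a pseudocount where at least one was 1 or more. Ratios of at least 1 or at most -1 were counted. No test was possible. Alternatives were a pseudocount of 1 or 0.1, no minimum, a minimum in both conditions, centring on the median, columns rescaled to one sum, centring within 10 expression groups, loci with a single identifier, and a log2 ratio of 2. The 5 genes, the list of 22 pathway genes and these settings were chosen with earlier results of these data known. Named genes were the 5 genes, pathway genes past the threshold, GST7, GSTU8 and the 2 nearest profiles of each gene, of which the nearest is printed because identifiers are not paired with names. None of the 5 identifiers was found in the RefSeq gene table at hand. Calculations used Python 3.11.15, numpy 2.4.6, pandas 2.3.3 and matplotlib 3.10.9 and were tested on simulated data.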

Additional observations from a re-analysis of the deposited data

Results flagged for a closer look

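GSTU25 was lower under drought in the tolerant genotype (log2 ratio -1.59) and higher in the sensitive genotype (0.45). The opposite direction drew attention to it; with pooled values the difference was not tested, and all 4 values were under an FPKM of 1.

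GST was lower in DT than in DS under control conditions (log2 ratio -0.56) and higher in DT under drought (0.27). It was the only gene of the 5 for which the direction between genotypes turned with the water regime. That difference was not tested either. Only the 3 scalings could turn a sign, and under them the ratio ranged from -0.79 to -0.29 in DT(C)/DS(C) and from 0.11 to 0.25 in DT(D)/DS(D).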

How the results depend on the processing

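No paired analysis was possible because the deposited columns pool the replicates, and for the same reason no replicate could be left out. Only the 3 scalings (centring on the median or within expression groups, and equal column sums) could turn the sign of a log2 ratio. Of 45 ratios of single genes recomputed with them, 0 changed sign, 28 stayed within 0.1 and 17 moved further. Counts of genes past the threshold were 2 in DS(D/C), 4 in DT(D/C), 1 in DT(C)/DS(C) and 2 in DT(D)/DS(D), beside 16.9%, 13.9%, 16.3% and 11.8% of all loci. With a pseudocount of 1 they were 1 in DS(D/C), 2 in DT(D/C) and 1 in DT(D)/DS(D), where 11.6%, 10.4% and 7.85% of all loci were past it. With an FPKM of at least 1 in both conditions the counts were again 1, 2 and 1, beside 12.7%, 10.8% and 7.83%. Without a minimum there were 2 in DT(C)/DS(C), since GSTU19 then counted, and, with GSTU25 counted, 5 in DT(D/C) and 3 in DT(D)/DS(D), beside 17.5%, 15.0% and 13.1%. In DS(D/C), equal column sums gave 3 (beside 24.8%) and centring within expression groups 1 (beside 15.2%). At a log2 ratio of 2 there were 0 in every comparison, where 3.69% to 5.05% of all loci were past it. The difference between the drought ratios of the genotypes, DT minus DS, was for GST 0.73 with a pseudocount of 1, 0.39 with rescaled columns and 1.01 with centring within groups. For GSTU7 it was -1.30 with rescaled columns. For GSTU25 it was -0.57 with a pseudocount of 1, -1.58 with 0.1 and -2.48 with rescaled columns. For GSTU19 it was 0.10 with a pseudocount of 1, 0.48 with 0.1, 0.23 with rescaled columns and 1.03 with centring within groups. For GSTU20 it was 0.36, -0.039, -0.63 and 0.18 under the same alternatives. With GST7 and GSTU8 added to the sum, the share of GST was 0.709% in DS(C), 1.21% in DS(D), 0.627% in DT(C) and 1.38% in DT(D). That of GSTU7 was 2.88%, 1.83%, 3.08% and 0.778% in this order, and that of the other 3 together 0.597%, 0.423%, 0.320% and 0.175%. With equal column sums, added after the values were seen, the drought log2 ratio in DS was 0.019 for the sum of the 5 genes and -0.33 for the 4 tau genes. Without values per library, the spread between libraries limits every statement here, most of all for GSTU25, GSTU19 and GSTU20, whose FPKM is near or under 1.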
